A study of Mus musculus with 8 samples.

Results

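Genes of cell division were followed in cultured peritoneal macrophages of the mouse, phagocytes that live in the abdominal cavity. The set holds 38 genes of cell cycle entry, DNA replication, mitosis and cell cycle arrest, taken by symbol from a table of 24339 genes, and all 38 were found in it. The cells were from wild type (WT) C57BL/6 mice or from α7nAChR-/- mice (KO), which lack a nicotinic acetylcholine receptor, the product of Chrna7. Plated cells received vehicle or nicotine at 10 µM for 15 min, and then vehicle or lipopolysaccharide (LPS), a bacterial cell wall component, at 100 ng/ml for 4 h. Each genotype thus gave 4 groups, called vehicle, nicotine, LPS and dual (nicotine, then LPS), with 1 library per group and 8 in all. The knockout is carried by the whole animal. The number of mice is not in the labels, nor whether 1 preparation gave all 4 libraries of a genotype, so a difference of genotype and one of preparation cannot be told apart.

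A cell enters division when D-type cyclins with Cdk4 or Cdk6, and then cyclin E with Cdk2, inactivate the retinoblastoma protein and free E2F transcription factors. E2F targets include the MCM helicase subunits that are loaded on replication origins, and the enzymes that supply nucleotides. Cyclin A, cyclin B and Cdk1 then carry the cell into mitosis, and inhibitors such as p21 (Cdkn1a) and p27 (Cdkn1b) hold these kinases back. Resident peritoneal macrophages can renew themselves by division in the cavity.

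Values are FPKM, fragments counted per transcript length and library size, a level per length. Of the 38 genes, 31 had a mean of at least 1 FPKM over the 8 libraries and entered the tests, among 10447 such genes. Differences and folds were computed from log2(FPKM + 1), so they understate the change of low genes, and are given with the standard error (SE). The tests are moderated linear models (limma) with Benjamini-Hochberg adjustment over all 10447 genes, and "passed" means an adjusted p under 0.05. No group had a replicate, so the error came from what each model left unexplained, and a p-value measures no more than the spread between these 8 libraries. The effect of 1 agent in the absence or presence of the other rests on 2 libraries, 1 of each genotype, against 2. After such a result, any library without which it did not pass is named in parentheses. A fit with a library left out also has fewer residual degrees of freedom. A call can therefore be lost with its difference unchanged, and the loss alone does not show dependence on that library.

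The libraries held 9746 to 10410 genes at 1 FPKM or more and summed to 413052 to 854016 FPKM, highest in the 2 LPS libraries. Depth in counts is unknown. Chrna7 was listed at 0 in every library, WT included, and did not check the genotype labels. All 9 markers of peritoneal macrophages had a mean of at least 1 FPKM, with a summed level of 19332 to 34562 FPKM. Summed levels were 158 to 751 FPKM for 7 mast cell markers, 206 to 438 for 7 B cell markers, 8.30 to 232 for 4 monocyte markers, 22.8 to 175 for 6 neutrophil markers and 2.56 to 48.8 for 5 dendritic cell markers. They were 9.84 to 22.5 FPKM for 7 T cell markers and 0.528 to 12.9 for 5 NK cell markers. Markers of eosinophils and of fibroblasts with mesothelium summed to at most 3.64 and 8.54 FPKM, and the defining eosinophil gene Epx was at 0 throughout. In bulk RNA, a change in the number of cells of a type and a change in RNA per cell cannot be told apart.

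The cell cycle genes moved in both directions with each agent. LPS alone raised the cyclin gene Ccnd2, the proliferation marker gene Mki67, Cdkn1a and Ccne1, and lowered E2f1, Cdk2, Cdkn2c and Tk1. Nicotine given before LPS lowered Ccnd2 and Mki67, and raised E2f1, Cdk2, Cdkn2c and the helicase genes Mcm3 and Mcm4. With LPS alone, 7 of 31 tested genes rose and 8 fell, against 32.7% and 26.4% of all genes tested (59.1% in either direction). With LPS after nicotine 5 rose and 1 fell, against 8.29% and 6.59% (14.9%). Nicotine without LPS raised 4 and lowered 5, against 30.1% and 26% (56%), and nicotine before LPS raised 9 and lowered 7, against 26.9% and 28.6% (55.6%). Quantile normalization moved the median LPS difference over all genes from 0.08 to -0.07 without nicotine, and the share of called genes that were higher from 55.4% to 45.2%. Of the cell cycle genes, 6 then rose and 7 fell with LPS alone.

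These counts changed when some libraries were left out, in fits with fewer residual degrees of freedom. For Cdk6, the difference for nicotine before LPS stayed at -1.15 without WT vehicle or KO vehicle, although the call was lost. For nicotine before LPS (16 genes), 10, 7 or 10 passed without WT LPS, WT dual or KO dual. For nicotine alone (9 genes), 5, 5 or 4 passed without WT vehicle, WT nicotine or KO nicotine. For LPS after nicotine (6 genes), 3, 3, 0 or 1 passed without WT nicotine, WT dual, KO nicotine or KO dual. For LPS alone (15 genes) the count stayed between 10 and 19.

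The 5 genes that rose with LPS after nicotine were Ccnd2, described below, and Mki67 (1.93 ± 0.42, limma adjusted p = 0.0281; adjusted p = 0.126, 0.155, 0.172 and 0.162 without WT nicotine, WT dual, KO nicotine or KO dual), Cdkn1a (1.20 ± 0.25, adjusted p = 0.0272; adjusted p = 0.123, 0.119 and 0.186 without WT dual, KO nicotine or KO dual), Mcm4 (1.22 ± 0.17, adjusted p = 0.00639; adjusted p = 0.0636, 0.0679 and 0.0504 without WT dual, KO nicotine or KO dual) and Pcna (0.58 ± 0.15, adjusted p = 0.0478; adjusted p = 0.0763, 0.148, 0.265, 0.0749, 0.284 and 0.165 without WT vehicle, WT nicotine, WT dual, KO vehicle, KO nicotine or KO dual). With quantile normalization Cdkn1a, Mki67 and Pcna did not pass (adjusted p = 0.0578, 0.0512 and 0.199).

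**Figure D1:**
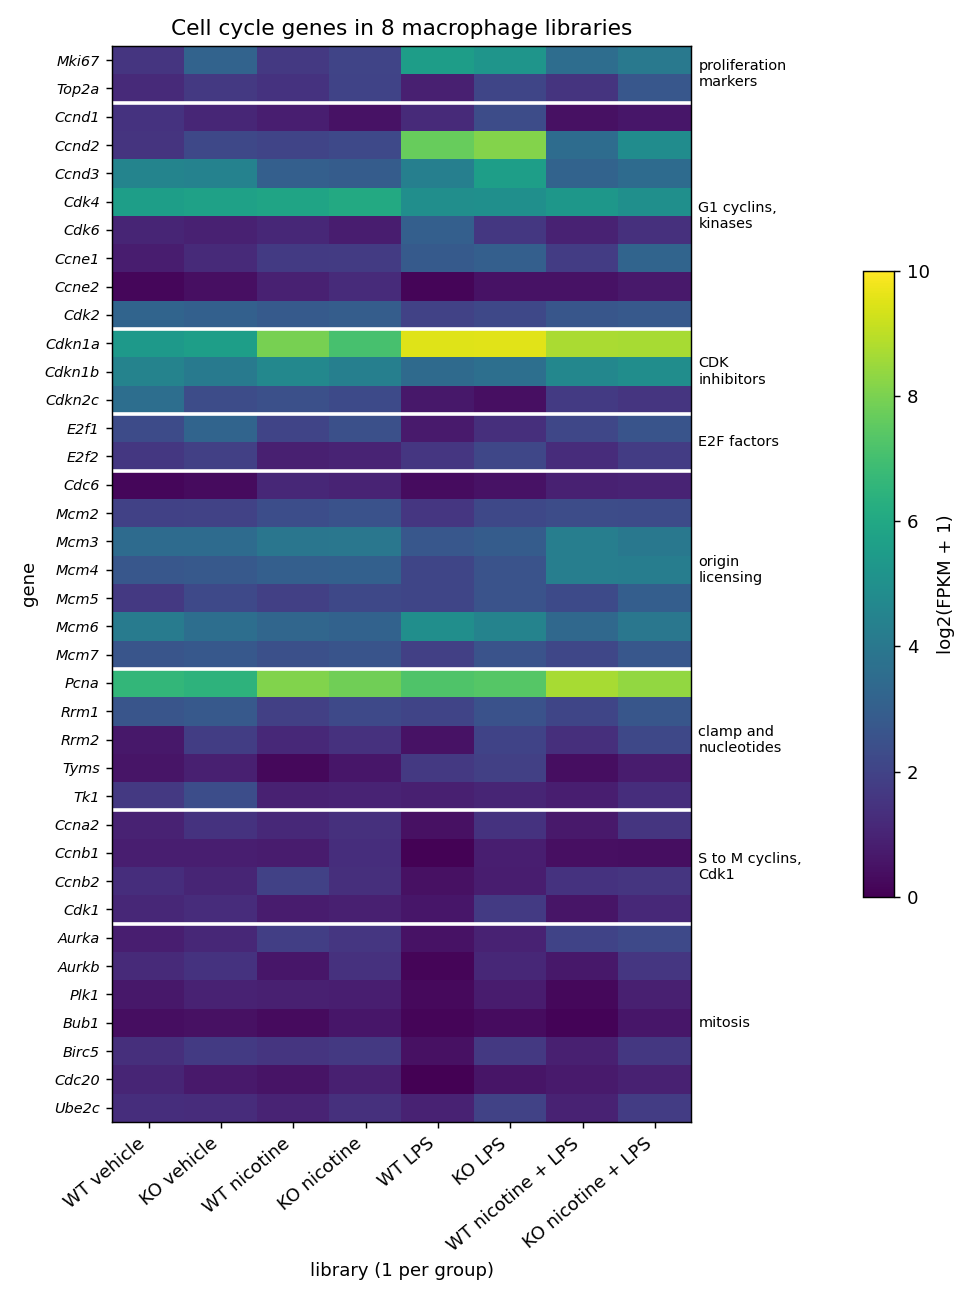
Level of each of the 38 genes (rows, grouped by role) in each of the 8 libraries (columns) as log2(FPKM + 1), from dark purple at 0 to yellow at 10. Cdkn1a and Pcna are the brightest rows, Ccnd2 is bright in the 2 LPS libraries, and the mitotic genes at the bottom stay dark throughout.

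Mki67 and Top2a, both used as markers of dividing cells, differed in their values. Mki67 (chromosome 7, 135689784 to 135716361, minus strand, GRCm38) encodes Ki-67, which coats mitotic chromosomes. In the order vehicle, nicotine, LPS and dual, which all values below follow, it had 1.95, 2.15, 46.6 and 10.8 FPKM in WT and 8.15, 3.19, 35.8 and 15.4 FPKM in KO cells. The 4 libraries given LPS lay above the 4 without it. LPS alone raised it 8.06-fold (log2 difference 3.01 ± 0.42, SE, 2 libraries in each arm, limma adjusted p = 0.00124), and nicotine before LPS lowered it 3.01-fold (-1.59 ± 0.42, adjusted p = 0.017; adjusted p = 0.0911, 0.0854 and 0.0923 without WT LPS, WT dual or KO dual). Top2a, encoding the topoisomerase that untangles chromosomes, had 1.26, 1.79, 0.852 and 1.85 FPKM in WT and 2.16, 3.06, 3.24 and 5.62 FPKM in KO cells. The WT LPS library, highest for Mki67, was lowest for Top2a. The Top2a difference with LPS alone was 0.07 ± 0.24, adjusted p = 0.818. No other annotated gene shares exonic bases with Mki67.

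Among D-type cyclins, the largest difference was that of Ccnd2 (chromosome 6, 127125162 to 127152193, minus strand). It had 1.84, 3.15, 201 and 10.4 FPKM in WT and 3.53, 3.65, 282 and 27.95 FPKM in KO cells, and the 2 LPS libraries stood far above the rest. Its rank among all genes went from 9545 in WT vehicle to 528 in WT LPS, and from 8199 to 437 in KO. LPS alone raised it 66.7-fold (6.06 ± 0.27, limma adjusted p = 6.1e-05), and nicotine before LPS lowered it 13.1-fold (-3.72 ± 0.27, adjusted p = 0.000231). Both calls held without any 1 library. LPS after nicotine raised it 4.14-fold (2.05 ± 0.27, adjusted p = 0.00579; adjusted p = 0.0538 without KO nicotine). For nicotine without LPS the difference was 0.29 ± 0.27, adjusted p = 0.381.

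Ccnd3 was lower with nicotine in each setting. It had 22.01, 7.26, 18.7 and 8.10 FPKM in WT and 20.5, 6.46, 47.98 and 10.4 FPKM in KO cells, and all 4 libraries with nicotine lay below all 4 without. The fall was 2.83-fold without LPS (-1.50 ± 0.35, limma adjusted p = 0.0109; adjusted p = 0.0819 and 0.0878 without WT vehicle or KO nicotine) and 3.06-fold with LPS (-1.61 ± 0.35, adjusted p = 0.00824; adjusted p = 0.0548 and 0.0548 without WT dual or KO dual). Ccnd1 was low, at 1.78, 0.768, 1.27 and 0.370 FPKM in WT and 1.08, 0.420, 4.00 and 0.537 FPKM in KO cells. It was lower in the nicotine library of each pair, and the fall passed with LPS (-1.21 ± 0.37, adjusted p = 0.0306; adjusted p = 0.132, 0.126 and 0.12 without WT dual, KO LPS or KO dual).

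The kinase partners went different ways. Cdk4, a partner of D-type cyclins, had 47.5, 56.7, 29.9 and 38.4 FPKM in WT and 51.4, 66.02, 31 and 30.2 FPKM in KO cells, lower in the LPS-treated library of all 4 pairs. LPS lowered it 1.60-fold without nicotine (-0.68 ± 0.17, limma adjusted p = 0.0125; adjusted p = 0.0802 without KO vehicle) and 1.77-fold after nicotine (-0.83 ± 0.17, adjusted p = 0.0238; adjusted p = 0.082, 0.176 and 0.167 without WT nicotine, KO nicotine or KO dual). Cdk6, its close relative, had 1.06, 1.19, 7.15 and 0.954 FPKM in WT and 0.906, 0.719, 2.12 and 1.63 FPKM in KO cells, highest in the 2 LPS libraries. It rose with LPS alone (1.35 ± 0.39, adjusted p = 0.0239; adjusted p = 0.128, 0.104 and 0.0641 without WT vehicle, WT LPS or KO vehicle) and fell with nicotine before LPS (-1.15 ± 0.39, adjusted p = 0.0439; adjusted p = 0.0611, 0.0729, 0.228, 0.294, 0.0609 and 0.0729 without WT vehicle, WT nicotine, WT LPS, WT dual, KO vehicle or KO nicotine).

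Cyclin E1 and Cdk2, which act together at the start of replication, moved in opposite directions with LPS alone. Ccne1 had 0.750, 2.26, 6.21 and 2.42 FPKM in WT and 1.29, 2.36, 7.08 and 8.25 FPKM in KO cells, and LPS alone raised it 3.82-fold (1.93 ± 0.33, limma adjusted p = 0.00296). The dual library was close to the nicotine library in WT cells and highest of all in KO cells. Cdk2 had 8.44, 6.18, 2.92 and 5.40 FPKM in WT and 7.40, 6.64, 3.55 and 5.95 FPKM in KO cells, with the 2 LPS libraries lowest. It fell 2.11-fold with LPS alone (-1.07 ± 0.15, adjusted p = 0.00137), and nicotine before LPS raised it 1.58-fold (0.66 ± 0.15, adjusted p = 0.0107; adjusted p = 0.0587 and 0.0746 without WT dual or KO dual). The cyclin E2 gene Ccne2 stayed under the filter, at 0.102 to 1.37 FPKM.

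**Figure D2:**
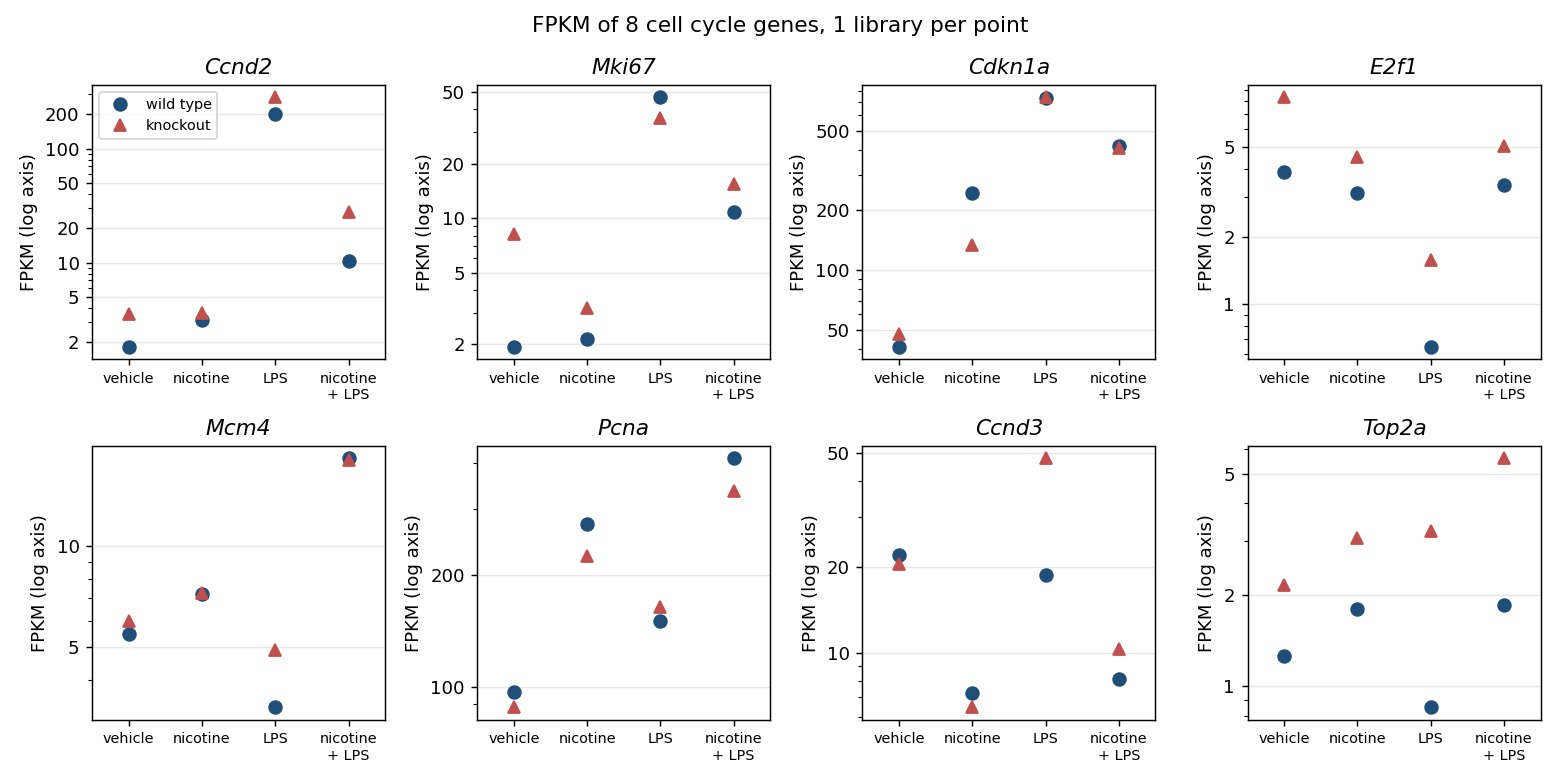
FPKM on a log axis for 8 genes, with 1 point per library, blue circles for WT and red triangles for KO. Ccnd2 and Mki67 peak in the LPS libraries, Cdkn1a is lowest with vehicle, E2f1 is lowest with LPS, Mcm4 is highest in the dual libraries, Ccnd3 is low in the 4 nicotine-treated libraries, and Top2a is higher in KO cells in each pair.

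Of the 3 inhibitors of cyclin-dependent kinases, Cdkn1a, encoding p21 (chromosome 17, 29090976 to 29100727, plus strand), had the highest level. It had 41.1, 244, 735 and 419 FPKM in WT and 47.3, 133, 740.2 and 412 FPKM in KO cells, so the 2 vehicle libraries lay below the other 6. In the LPS libraries it ranked 146 (WT) and 163 (KO) among all genes. LPS alone raised it 16.4-fold (4.03 ± 0.25, limma adjusted p = 0.000102) and nicotine alone 4.02-fold (2.01 ± 0.25, adjusted p = 0.00121), and both calls held without any 1 library. Given before LPS, nicotine lowered it 1.77-fold (-0.83 ± 0.25, adjusted p = 0.0313; adjusted p = 0.0591, 0.169, 0.121 and 0.0964 without WT LPS, WT dual, KO LPS or KO dual), and with quantile normalization this fall did not pass (adjusted p = 0.118).

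The other inhibitors were lowest with LPS alone. Cdkn2c, encoding p18, which binds Cdk4 and Cdk6, had 11.1, 4.42, 0.567 and 2.27 FPKM in WT and 3.98, 3.70, 0.321 and 1.94 FPKM in KO cells. It fell 5.39-fold with LPS alone (-2.43 ± 0.29, limma adjusted p = 0.000754) and rose 2.16-fold with nicotine before LPS (1.11 ± 0.29, adjusted p = 0.0179; adjusted p = 0.0852, 0.0508 and 0.124 without WT LPS, WT dual or KO dual). Cdkn1b, encoding p27, had 20.9, 24.4, 10.00 and 23.8 FPKM in WT and 15.8, 18.9, 11.7 and 28.9 FPKM in KO cells, lowest in the 2 LPS libraries. Its rise with nicotine before LPS (1.20 ± 0.21, adjusted p = 0.00358) held without any 1 library, and its fall with LPS alone (-0.70 ± 0.21, adjusted p = 0.0269) did not (adjusted p = 0.192 and 0.135 without WT vehicle or WT LPS).

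E2f1, an activator of replication genes (chromosome 2, 154559407 to 154569892, minus strand), had 3.87, 3.11, 0.650 and 3.38 FPKM in WT and 8.31, 4.50, 1.57 and 5.06 FPKM in KO cells. The 2 LPS libraries lay below the other 6. It fell 3.27-fold with LPS alone (-1.71 ± 0.18, limma adjusted p = 0.000432) and rose 2.50-fold with nicotine before LPS (1.32 ± 0.18, adjusted p = 0.00131), and both calls held without any 1 library. Nicotine without LPS gave a small fall (-0.50 ± 0.18, adjusted p = 0.0479; adjusted p = 0.0813, 0.0724, 0.331, 0.251 and 0.073 without WT nicotine, WT dual, KO vehicle, KO nicotine or KO dual), which did not pass with quantile normalization (adjusted p = 0.231). Its relative E2f2 had 2.05, 0.829, 2.02 and 1.41 FPKM in WT and 2.68, 0.970, 3.34 and 2.40 FPKM in KO cells, lower in the nicotine library of all 4 pairs. That fall passed without LPS (-0.82 ± 0.17, adjusted p = 0.0074; adjusted p = 0.0574 and 0.0595 without WT vehicle or KO nicotine).

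The 6 subunits of the MCM2-7 helicase, which form 1 ring, did not move in the same direction. Mcm4 (chromosome 16, 15623897 to 15637400, minus strand) had 5.48, 7.20, 3.31 and 18.3 FPKM in WT and 5.97, 7.27, 4.92 and 18.02 FPKM in KO cells, so the 2 dual libraries stood apart. Nicotine before LPS raised it 3.79-fold (1.92 ± 0.17, limma adjusted p = 0.000338), and for nicotine alone the difference was 0.29 ± 0.17, adjusted p = 0.174. Mcm3 had 10.2, 14.01, 5.50 and 18.5 FPKM in WT and 10.1, 14.5, 6.43 and 15.2 FPKM in KO cells, with the LPS libraries lowest and the dual libraries highest. It rose 2.56-fold with nicotine before LPS (1.36 ± 0.16, adjusted p = 0.000778) and fell 1.61-fold with LPS alone (-0.68 ± 0.16, adjusted p = 0.00914; adjusted p = 0.0616 and 0.0561 without WT vehicle or KO vehicle). Its rise with nicotine alone was smaller (0.45 ± 0.16, adjusted p = 0.0448; adjusted p = 0.171, 0.129, 0.0521, 0.169, 0.186 and 0.052 without WT vehicle, WT nicotine, WT dual, KO vehicle, KO nicotine or KO dual) and did not pass with quantile normalization (adjusted p = 0.0708).

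Mcm6 was highest where Mcm3 was lowest. It had 16.8, 8.96, 29.99 and 9.37 FPKM in WT and 11.1, 7.80, 21.4 and 14.8 FPKM in KO cells. LPS alone raised it 1.8-fold (0.84 ± 0.28, limma adjusted p = 0.039; adjusted p = 0.0512, 0.066, 0.183, 0.233 and 0.0661 without WT vehicle, WT nicotine, WT LPS, KO vehicle or KO nicotine; 0.155 with quantile normalization), and nicotine before LPS lowered it 2.06-fold (-1.04 ± 0.28, adjusted p = 0.0196; adjusted p = 0.102 and 0.105 without WT LPS or WT dual). Mcm2 (1.98 to 4.71 FPKM), Mcm5 (2.12 to 6.88) and Mcm7 (2.74 to 5.68) did not pass for 1 agent in the absence or presence of the other. Cdc6, which loads the helicase on origins, was under the filter, with 0.142, 1.18, 0.263 and 0.882 FPKM in WT and 0.229, 1.01, 0.398 and 0.988 FPKM in KO cells, higher in each library with nicotine.

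Promoter sequences are shown for Mcm3, Mcm5, Mcm6 and Cdk2, because all 4 hold letters of the E2F motif and their changes differed. With LPS alone and with nicotine before LPS, Mcm6 moved opposite to Mcm3 and Cdk2. Mcm5 did not pass within a treatment. Windows run from 250 bases before to 30 after a transcription start in RefSeq (GRCm38.p6), on the gene's strand, 5′ to 3′. Capitals mark every match to TTTCCCGC, TTTCGCGC, TTTGCCGC or TTTGGCGC on either strand, and overlapping matches share bases.
Mcm3, chr1:20820283-20820562, minus strand: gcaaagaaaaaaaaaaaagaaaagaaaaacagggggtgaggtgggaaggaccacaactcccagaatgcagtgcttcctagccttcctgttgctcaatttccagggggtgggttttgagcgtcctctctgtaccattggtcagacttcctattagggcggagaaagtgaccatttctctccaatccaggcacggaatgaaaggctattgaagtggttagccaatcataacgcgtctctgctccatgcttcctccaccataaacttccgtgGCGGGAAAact
Mcm5, chr8:75109259-75109538, plus strand: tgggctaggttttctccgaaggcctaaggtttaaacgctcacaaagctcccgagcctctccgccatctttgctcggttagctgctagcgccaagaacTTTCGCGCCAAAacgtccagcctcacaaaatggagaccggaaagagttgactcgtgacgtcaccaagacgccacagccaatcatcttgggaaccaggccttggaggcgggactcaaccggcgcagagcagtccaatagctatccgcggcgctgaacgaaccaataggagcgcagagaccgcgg
Mcm6, chr1:128359676-128359955, minus strand: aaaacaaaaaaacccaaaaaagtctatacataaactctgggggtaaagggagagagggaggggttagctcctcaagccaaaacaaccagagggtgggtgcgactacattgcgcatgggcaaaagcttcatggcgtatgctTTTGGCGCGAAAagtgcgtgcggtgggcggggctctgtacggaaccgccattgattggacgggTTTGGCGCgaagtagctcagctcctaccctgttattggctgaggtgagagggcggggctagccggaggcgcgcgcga
Cdk2, chr10:128705022-128705301, minus strand: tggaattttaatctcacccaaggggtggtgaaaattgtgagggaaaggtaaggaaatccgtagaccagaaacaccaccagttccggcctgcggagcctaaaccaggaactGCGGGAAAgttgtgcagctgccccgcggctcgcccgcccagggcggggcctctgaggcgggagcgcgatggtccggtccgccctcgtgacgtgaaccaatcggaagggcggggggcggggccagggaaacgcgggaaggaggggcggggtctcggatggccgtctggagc

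In the Mcm6 window, 3 matches begin at -110, -106 and -47 from the start, of which the first pair overlaps. The Mcm5 window has overlapping matches at -153 and -149, that of Mcm3 has 1 at 19 and that of Cdk2 has 1 at -140. RefSeq windows were matched for 32 of the 38 genes and numbered 37. An E2F match stood in 7 of these 37 (18.9%), against 2.12% of all 32851 windows of this length. The 7 genes were Cdk2, Cdc6, Mcm3, Mcm5, Mcm6, Mcm7 and Cdk1. The CHR letters TTTGAA or TTCGAA, known from genes of late cell cycle phases, stood in 10 of the 37 windows (27.0%, against 18.4% of all), and CCAAT in 25 (67.6%, against 36.1%), on either strand. Such a match describes these letters only.

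Pcna, encoding the sliding clamp of DNA polymerase (chromosome 2, 132249162 to 132253314, minus strand), rose with nicotine both without and with LPS. It had 96.9, 274, 149.8 and 412 FPKM in WT and 87.9, 225, 164 and 336 FPKM in KO cells, and every library with nicotine lay above every library without. Nicotine raised it 2.67-fold without LPS (1.42 ± 0.15, limma adjusted p = 0.000687) and 2.37-fold with LPS (1.24 ± 0.15, adjusted p = 0.00092), and both calls held without any 1 library. LPS alone raised it 1.69-fold (0.76 ± 0.15, adjusted p = 0.00521), but with quantile normalization the difference was -0.27 (adjusted p = 0.128). Summed mast cell markers had the same order of groups as Pcna, at 208, 392, 282 and 751 FPKM in WT and 158, 299, 207 and 572 FPKM in KO cells (6 of 7 markers with a mean of at least 1 FPKM). Summed B cell markers were highest in the dual library of each genotype (368 and 438 FPKM), as was Mcm4. Their part in these results was not tested. GENCODE lists pseudogenes named for Pcna, Ccnd3, Ccnb1, Ccnb2 and Tyms, so values of these genes are uncertain where reads were shared.

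The enzymes of nucleotide supply were low. Tk1, thymidine kinase, had 2.20, 0.887, 0.848 and 0.811 FPKM in WT and 4.12, 1.01, 1.02 and 1.48 FPKM in KO cells, highest with vehicle in each genotype. It fell 2.09-fold with LPS alone (-1.07 ± 0.20, limma adjusted p = 0.00413) and 2.08-fold with nicotine alone (-1.06 ± 0.20, adjusted p = 0.00498), and both calls held without any 1 library. Rrm1, the large subunit of ribonucleotide reductase, had 2.70 to 5.88 FPKM and fell with nicotine alone (-0.67 ± 0.16, adjusted p = 0.0125; adjusted p = 0.114, 0.0535 and 0.078 without WT vehicle, WT nicotine or KO nicotine). The small subunit Rrm2 had 0.547, 1.20, 0.386 and 1.56 FPKM in WT and 2.55, 1.68, 3.06 and 3.53 FPKM in KO cells and did not pass for either agent. Every KO value of Rrm2 lay above every WT value.

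Tyms, thymidylate synthase, was under the filter, with 0.492, 0.153, 2.14 and 0.300 FPKM in WT and 0.863, 0.533, 2.71 and 0.700 FPKM in KO cells, highest in the LPS libraries. With no filter on low values its rise with LPS alone passed (1.03 ± 0.09, adjusted p = 0.00156, limma), as did its fall with nicotine before LPS (-1.20 ± 0.09, adjusted p = 0.00176). In that fit Cdc6 rose with nicotine alone (0.82 ± 0.09, adjusted p = 0.00343) and before LPS (0.54 ± 0.09, adjusted p = 0.0101). Ccne2 rose with nicotine alone (0.79 ± 0.07, adjusted p = 0.0021) and before LPS (0.26 ± 0.07, adjusted p = 0.0364), with 0.127, 0.905, 0.102 and 0.400 FPKM in WT and 0.339, 1.37, 0.398 and 0.587 FPKM in KO cells. Fits with a library left out kept the filter, so these calls of Tyms, Cdc6 and Ccne2 were not checked in that way.

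Genes of late S phase and mitosis stayed near the filter, and of them Aurka, Ccnb2 and Aurkb passed for an agent. Aurka, the kinase of spindle poles, had 0.776, 2.62, 0.395 and 3.05 FPKM in WT and 1.18, 1.96, 0.966 and 3.57 FPKM in KO cells, and the 4 nicotine-treated libraries lay above the other 4. Nicotine raised it 1.67-fold without LPS (0.74 ± 0.22, limma adjusted p = 0.0258; adjusted p = 0.139, 0.176 and 0.0775 without WT vehicle, WT nicotine or KO vehicle). With LPS the rise was 2.60-fold (1.38 ± 0.22, adjusted p = 0.00241) and held without any 1 library. Ccnb2, encoding cyclin B2, a partner of Cdk1, had 1.45, 2.85, 0.358 and 1.75 FPKM in WT and 1.05, 1.57, 0.722 and 1.95 FPKM in KO cells and rose with nicotine before LPS (0.90 ± 0.24, adjusted p = 0.0198; adjusted p = 0.106, 0.0623 and 0.123 without WT LPS, WT dual or KO dual). Aurkb, the kinase of the chromosomal passenger complex, had 1.28, 0.542, 0.109 and 0.570 FPKM in WT and 1.74, 1.70, 1.15 and 2.01 FPKM in KO cells. It fell with LPS alone (-0.69 ± 0.22, adjusted p = 0.0304; adjusted p = 0.222, 0.0517, 0.138 and 0.0524 without WT vehicle, WT nicotine, WT LPS or KO nicotine; 0.176 with quantile normalization).

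Ccna2 (0.373 to 1.88 FPKM), Cdk1 (0.501 to 2.24), Ube2c, which tags cyclins for destruction (0.924 to 2.95), and Birc5, encoding survivin (0.374 to 2.29), did not pass for either agent. Ccnb1 (0.0451 to 1.49 FPKM), Plk1 (0.167 to 0.929), Bub1 (0.0603 to 0.534) and Cdc20 (0 to 1.03) were under the filter, and Cdc20, an activator of the anaphase-promoting complex, was listed at 0 in WT LPS. That library had the lowest value of the 8 for Top2a, Ccna2, Ccnb1, Ccnb2, Rrm2, Birc5, Aurka, Aurkb and Cdc20. It was also lowest for Ccne2, Cdk2, Cdk4, Cdkn1b, E2f1, Mcm2, Mcm3, Mcm4 and Mcm7, so this was not limited to mitotic genes. WT LPS also held the fewest genes at 1 FPKM or more (9746), and the share of all genes lowest in it was not counted. Ccna2, Ccnb1, Ccnb2 and Cdk1 summed to 1.31 FPKM in it, against 3.18 to 5.52 FPKM in the other libraries. The kit does not mark strand, so reads from genes on opposite strands cannot be told apart where exons overlap. This touched 23.4% of the exonic bases of Ccnd1, 22.8% of Ube2c, 19.7% of Cdk4, 17.4% of Ccne2, 12.5% of Ccna2, 7.68% of Cdkn1a and parts of 8 other members.

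The nicotine difference itself depended on LPS for 10 of 31 genes, 8 upwards and 2 downwards, against 12.8% and 17.3% of all genes tested (30.1% in either direction). The nicotine difference was lower with LPS than without it for Ccnd2 (-4.01 ± 0.38, limma adjusted p = 0.00376) and Cdkn1a (-2.84 ± 0.36, adjusted p = 0.00554). E2f1 (1.83 ± 0.25, adjusted p = 0.00616), Cdkn2c (1.73 ± 0.41, adjusted p = 0.0254), Mcm4 (1.63 ± 0.23, adjusted p = 0.00688), Tk1 (1.19 ± 0.28, adjusted p = 0.0244), Cdkn1b (0.97 ± 0.30, adjusted p = 0.0496), Cdk2 (0.92 ± 0.22, adjusted p = 0.0233), Mcm3 (0.90 ± 0.22, adjusted p = 0.0263) and Rrm1 (0.75 ± 0.23, adjusted p = 0.0484) had the higher difference with LPS. The calls of Ccnd2, Cdkn1a, E2f1 and Mcm4 held without any 1 library, and those of the other 6 did not. In place of 10 genes, 6, 4, 4, 4 or 6 passed without WT vehicle, WT nicotine, WT dual, KO nicotine or KO dual. Over all genes, 42.4% of called interactions were positive, and 55.4% with quantile normalization, under which 5 of the cell cycle genes were positive and 2 negative.

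**Figure D3:**
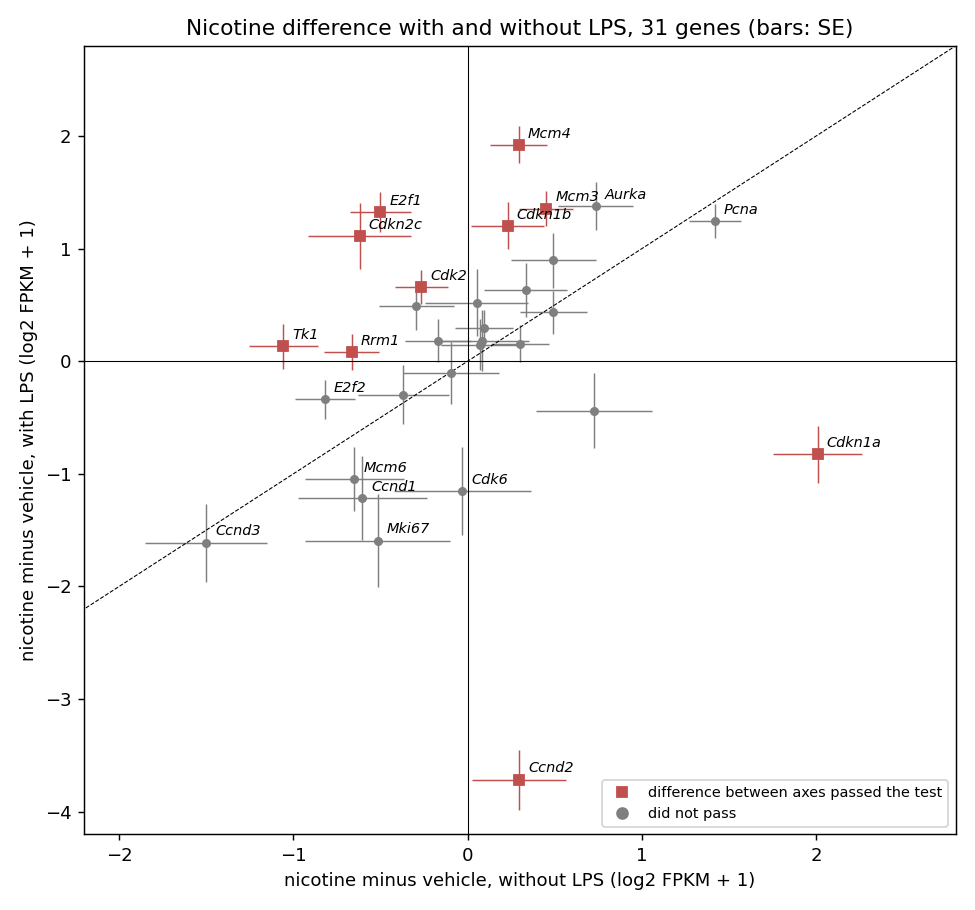
Nicotine minus vehicle in log2(FPKM + 1) for the 31 tested genes, without LPS (horizontal axis) and with LPS (vertical axis), with SE bars. Red squares are the 10 genes whose difference between the axes passed the test; Ccnd2 and Cdkn1a lie below the dashed line of equality, and the other 8 above it.

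Averaged over the other factors, LPS raised 6 and lowered 2 of the 31 genes, against 15.8% and 11.3% of all genes tested (27% in either direction). Nicotine raised 6 and lowered 5, against 24.1% and 22.2% (46.3%). For LPS the genes were Ccnd2, Mki67, Cdkn1a, Ccne1, Pcna and Mcm5 upwards, and Cdkn2c and Cdk4 downwards, and of these calls that of Mki67 (2.47 ± 0.36, limma adjusted p = 0.00651) held without any 1 library. In place of 8 genes, 3, 4, 1 or 2 passed without WT vehicle, WT LPS, KO vehicle or KO LPS. Over all genes, 58.4% of LPS calls were upwards, and 44.5% with quantile normalization, under which 6 of the cell cycle genes rose and 2 fell. For nicotine the calls of Pcna (1.33 ± 0.13, adjusted p = 0.000761), Aurka (1.06 ± 0.21, adjusted p = 0.00745), Mcm3 (0.90 ± 0.22, adjusted p = 0.0146) and Ccnd3 (-1.56 ± 0.25, adjusted p = 0.00351) held without any 1 library. Mcm4, Ccnb2 and Mcm2 also rose and E2f2, Mcm6, Ccnd1 and Mki67 also fell, calls that did not hold without 1 or more libraries. In place of 11 genes, 7, 6, 5, 7, 6 or 6 passed without WT nicotine, WT LPS, WT dual, KO vehicle, KO LPS or KO dual. The median log2 difference over the 31 genes was 0.07 for LPS and 0.14 for nicotine, against 0.02 and -0.04 for all genes tested.

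No gene of the set passed for genotype in the additive model (0 of 31, limma, 8 with an unadjusted p under 0.05), against 0.689% higher and 0.412% lower of all genes tested (1.1% in either direction). Of all 10447 genes tested, 1293 had an unadjusted p under 0.05 for genotype in that model. The median difference was 0.35 for KO minus WT, and -0.01 over all genes. In matched pairs of libraries, 14 of the 31 genes were higher in the KO library of all 4 pairs, as were 18% of all genes tested, and 1, Cdkn2c, was lower in all 4, as were 17.5%. The 14 were Top2a, Ccnd2, Ccne1, E2f1, E2f2, Mcm5, Mcm7, Rrm1, Rrm2, Tk1, Ccna2, Cdk1, Aurkb and Birc5. With the LPS by nicotine product in the model 5 of them passed, all higher in KO cells, against 7.64% of all genes tested in either direction. These were Rrm2 (0.96 ± 0.21, adjusted p = 0.0435), Top2a (0.86 ± 0.17, adjusted p = 0.0332), Aurkb (0.74 ± 0.15, adjusted p = 0.0369), E2f1 (0.62 ± 0.12, adjusted p = 0.0356) and Mcm5 (0.52 ± 0.12, adjusted p = 0.047).

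On the log2(FPKM + 1) scale, Top2a differed by 0.48, 0.54, 1.20 and 1.21 in the vehicle, nicotine, LPS and dual pairs, and Birc5 by 0.38, 0.13, 1.21 and 0.78. For both genes the pairs given LPS had the larger differences. Not all of the 14 genes had this order. E2f1 (0.93, 0.42, 0.64 and 0.47) and Tk1 (0.68, 0.09, 0.13 and 0.46) differed most in the vehicle pair. Whether the genotype difference depended on treatment was not tested. Summed monocyte markers were also higher in the KO library of each pair, at 38.7, 8.30, 50.5 and 11.7 FPKM in WT and 102, 37.9, 232 and 68.2 FPKM in KO cells. Summed neutrophil markers, of which 2 of 6 had a mean of at least 1 FPKM, were higher in KO in each pair too, at 34.1, 22.8, 113 and 46.2 FPKM in WT and 108, 60.7, 175 and 89.1 FPKM in KO cells. All 4 monocyte markers reached that mean. Their part in the genotype difference was not tested.

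**Figure D4:**
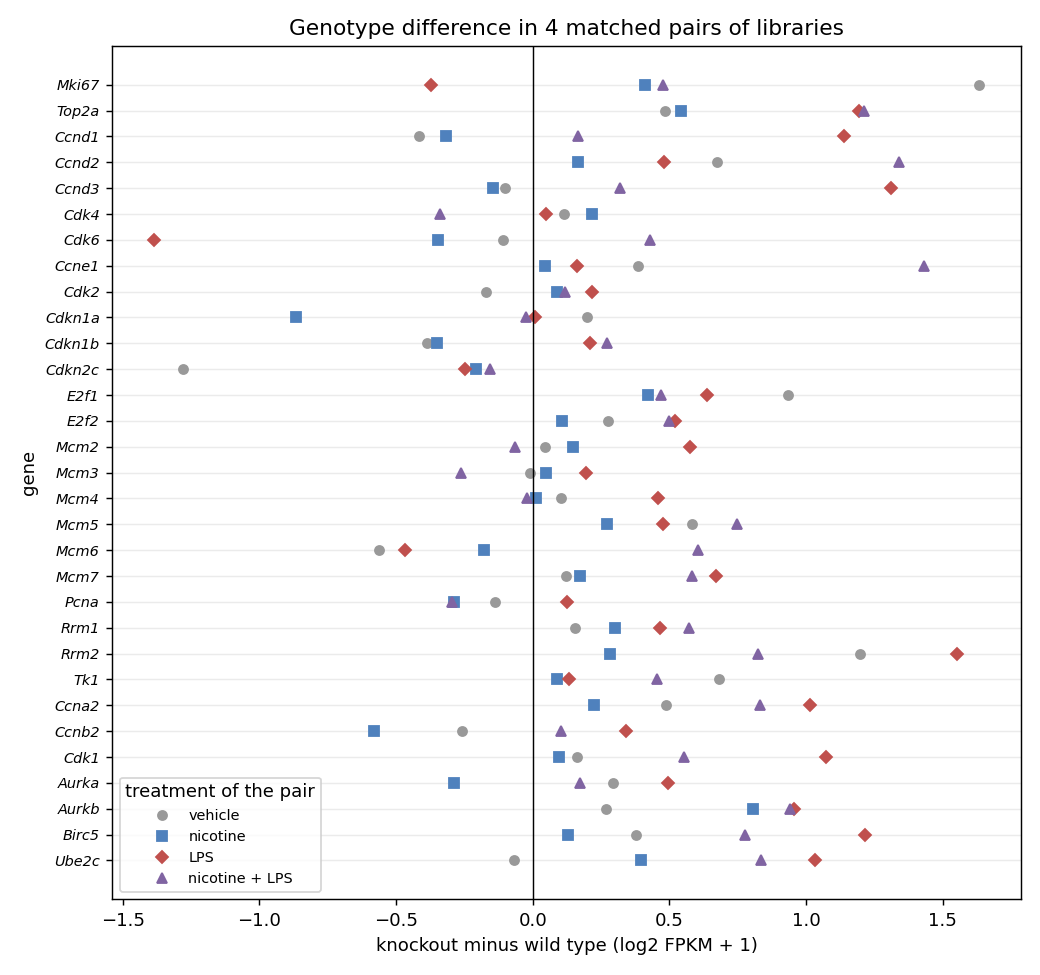
KO minus WT in log2(FPKM + 1) for the 31 tested genes (rows) in the 4 pairs of libraries with the same treatment, shown by colour and shape. In 14 genes, among them Top2a, Rrm2, Aurkb and E2f1, all 4 points lie to the right of 0, and in Cdkn2c all lie to the left.

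Of other genes of the cell cycle, 151 in 8 lists, 121 entered the tests. On average 13 of them rose and 10 fell with LPS, 34 rose and 18 fell with nicotine, and 1 was higher in KO cells. That is 19.0% called for LPS and 43.0% for nicotine, against 27% and 46.3% of all genes tested. Given 1 agent in the absence or presence of the other, 31 rose and 38 fell with LPS alone (57.0%, against 59.1% of all genes tested), and 12 rose and 6 fell with LPS after nicotine (14.9%, against 14.9%). With nicotine alone 38 rose and 26 fell (52.9%, against 56%), and with nicotine before LPS 48 rose and 21 fell (57.0%, against 55.6%). Median average differences were -0.02 for LPS, 0.21 for nicotine and 0.08 for genotype. Values and counts that follow are of average log2 differences unless stated. The average counts of each list stand against 15.8% higher and 11.3% lower of all genes tested for LPS. For nicotine these shares were 24.1% and 22.2%.

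Among 15 genes of E2F factors, pocket proteins and the DREAM complex, 2 rose and 1 fell with LPS. These were Rbl1, encoding the pocket protein p107 (1.48), E2f5 (1.19) and the repressor E2f6 (-0.88). With nicotine 4 rose and 1 fell, with the DREAM subunits Lin54 (2.26) and Lin52 (1.63) highest and Rbl1 (-1.42) lowest. Foxm1, which activates mitotic genes, had 0.555, 2.78, 1.00 and 2.45 FPKM in WT and 0.714, 2.09, 0.873 and 2.58 FPKM in KO cells and rose with nicotine (0.96 ± 0.15, limma adjusted p = 0.00313). On average E2f4, E2f8 and Rb1 did not pass for nicotine (0.06, -0.21 and 0.15) or LPS (0.39, 0.48 and -0.66). In each genotype E2f4 and E2f8 were highest, and Rb1 lowest, with LPS alone. E2f4 had 17.7, 29.9, 40.8 and 27.6 FPKM in WT and 19.6, 30.8, 36.02 and 24.04 FPKM in KO cells. Rb1 had 14.2, 12.3, 4.70 and 9.72 FPKM in WT and 14.7, 8.95, 6.60 and 9.98 FPKM in KO cells. Of the 15 genes, 6 rose and 4 fell with LPS alone, against 32.7% and 26.4% of all genes tested. Mybl2 was under the filter, at 0.0950 to 1.67 FPKM. Among 17 kinase regulators 3 rose and 2 fell with LPS, with Cks2 (1.65) and Pkmyt1 (0.95) highest and Skp2 (-0.68) and the phosphatase gene Cdc25b (-1.51) lowest. With nicotine 5 rose and 1 fell, with the cyclin F gene Ccnf (3.07) and Cks2 (1.62) highest and Mnat1 (-0.83) lowest. Ccnf had 0.612, 11.2, 0.164 and 11.97 FPKM in WT and 1.30, 15.2, 0.563 and 12.1 FPKM in KO cells, and all 4 libraries with nicotine lay above the rest.

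Of 15 genes of origin firing 0 passed for LPS on average (limma, 2 with an unadjusted p under 0.05, against 4693 of all 10447 genes tested). With LPS alone 2 rose and 4 fell, against 32.7% and 26.4% of all genes tested. With nicotine 6 rose and 3 fell, with Dbf4 (2.28) and Mcm10 (2.27) highest and Gins1 (-0.86) and Orc5 (-0.97) lowest. Cdt1, which loads the helicase together with Cdc6, had 7.46, 27.2, 5.23 and 22.7 FPKM in WT and 4.97, 18.3, 7.64 and 14.3 FPKM in KO cells, higher in each library with nicotine (1.55 ± 0.22, limma adjusted p = 0.00203). Of 23 DNA synthesis genes 1 rose with LPS, Rfc3 (1.35), and 3 fell, with Rpa1 (-0.91) and the maintenance methyltransferase gene Dnmt1 (-1.23) lowest. With nicotine 5 rose and 6 fell, with Chaf1b (2.40) and Fen1 (1.12) highest and Pold2 (-0.83) and Rrm2b (-1.08) lowest. Uhrf1, which guides Dnmt1 to replicated DNA, was the gene higher in KO cells (0.98 ± 0.16, limma adjusted p = 0.0445; lost without each of the 8 libraries in turn, with adjusted p up to 0.187, without KO vehicle).

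In the mitotic lists, 2 of 7 kinetochore genes rose with nicotine, Cenpa (1.85) and Zwint (1.31), and 1 with LPS, Mad2l1 (0.94). Of 13 spindle and chromosome genes 3 rose with nicotine, Racgap1 (2.33) and Stmn1 (2.29) highest. For LPS 0 of the 13 passed on average (limma, 0 with an unadjusted p under 0.05, against 4693 of all 10447 genes tested). With LPS alone 7 of the 13 fell and 0 rose, against 26.4% and 32.7% of all genes tested. With nicotine before LPS 7 rose and 0 fell, against 26.9% and 28.6%. Of the 7 kinetochore genes, 3 rose and 3 fell with LPS alone. Of 16 genes of the anaphase-promoting complex 2 rose and 2 fell with LPS, namely Pttg1 (1.34), Ube2s (1.30), Anapc11 (-0.43) and Espl1 (-0.72). With nicotine 2 rose and 6 fell, with Anapc7 (1.49) and Ube2s (1.15) highest and Pttg1 (-1.14) and Anapc4 (-1.17) lowest.

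The last list held 15 genes of the p53 pathway and growth arrest, a pathway that also has Cdkn1a as a target. On average 7 rose and 1 fell with nicotine, against 24.1% and 22.2% of all genes tested. With LPS 4 rose and 2 fell, against 15.8% and 11.3%. With nicotine alone 11 rose and 2 fell (30.1% and 26% of all genes), and with LPS alone 9 and 2 (32.7% and 26.4%). With nicotine before LPS 6 rose and 2 fell (26.9% and 28.6%), and with LPS after nicotine 3 and 1 (8.29% and 6.59%). Mdm2, the ligase that degrades p53, had 22.6, 412, 108 and 451 FPKM in WT and 26.5, 248, 114 and 229 FPKM in KO cells, highest in the 4 libraries with nicotine (2.59 ± 0.47, limma adjusted p = 0.00506). The kinase gene Plk2 rose with both agents (2.63 for nicotine and 2.43 for LPS). Gadd45a rose with nicotine (1.47 ± 0.33, adjusted p = 0.0113) and Gadd45b with LPS (4.05 ± 0.41, adjusted p = 0.0019), while Phlda3 (-1.94) and Zmat3 (-0.74) fell with LPS. Btg2, an antiproliferative gene, fell with nicotine (-1.90 ± 0.18, adjusted p = 0.000645) and rose with LPS (0.96 ± 0.18, adjusted p = 0.014; adjusted p = 0.0588 without KO vehicle). Ccng1 did not pass for nicotine (-0.15) or LPS (-0.33). Of the genes from these lists named for LPS, Cks2, Dnmt1, Gadd45b, Phlda3, Plk2 and Ube2s kept the call without any 1 library. For nicotine those named as called kept it, except Rbl1, Cenpa, Gins1 and Pttg1.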

How the data were processed

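RNA was sequenced from 8 groups of macrophages, 1 library each, grouped by their titles. Per the labels' protocols, poly(A) RNA from 500 ng of total RNA was made into libraries with a TruSeq kit that does not mark strand. The deposited values are FPKM computed by the authors. CASAVA 1.8, HISAT2, Cufflinks, Cuffdiff and build mm10 are named, per the submitters' processing notes, with no role or order. How libraries were scaled is not given in the sources used here. Of 24341 rows, 2 with a repeated symbol were dropped. Without counts, no interval for depth was possible.

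Genes averaging 1 FPKM or more (10447) were taken to log2(FPKM + 1) and fitted in limma 3.58.1 (R 4.3.3), moderated with an expression trend, with Benjamini-Hochberg adjustment over all of them. Average effects came from an additive model of LPS, genotype and nicotine (4 residual degrees of freedom). The interaction, and effects of 1 agent given the other, came from a model that adds the LPS by nicotine product (3 residual degrees of freedom). The models were tested on simulated data. Alternatives were another pseudocount (0.1), other filters (none, or 5 FPKM), quantile normalization, median centring, other models, and leaving out each library. Positions and exon overlaps came from GENCODE M21 and promoters from RefSeq. Python 3.11.15, pandas 2.3.3, NumPy 2.4.6 and Matplotlib 3.10.9 were used.

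The members and all lists were chosen with earlier results of these data known. All 38 members are described. Of the other genes, the text names the 2 largest rises and falls among called genes of each list and average effect, and 11 regulators chosen with the lists. The result of 1 marker list is not reported here.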

Additional observations from a re-analysis of the deposited data

Results flagged for a closer look

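The nicotine difference passed a test of its dependence on LPS for 10 genes of the set. On the log2(FPKM + 1) scale, the difference with LPS minus that without was -4.01 for Ccnd2 and -2.84 for Cdkn1a. It was 1.83 for E2f1, 1.73 for Cdkn2c, 1.63 for Mcm4, 1.19 for Tk1, 0.97 for Cdkn1b, 0.92 for Cdk2, 0.90 for Mcm3 and 0.75 for Rrm1. Of all genes tested 30.1% passed the same test, so the share in the set (32.3%) was near the background.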

How the results depend on the processing

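The counts below are cell cycle genes that passed. For LPS on average, 8 became 5 without a filter on low values, 5 with a filter at 5 FPKM (11 genes left), 15 with the LPS by nicotine product in the model, 3 with LPS as the only term and 5 with matched pairs of libraries as a block. For nicotine on average, 11 became 7 with the 5 FPKM filter, 17 with the product and 6 with nicotine as the only term. For genotype, 0 became 5 with the product and 5 with matched pairs as a block, which for genotype are the same fit and count as 1 alternative. The 5 FPKM filter left 6 for the interaction instead of 10, 4 for nicotine alone instead of 9, 10 for nicotine before LPS instead of 16 and 9 for LPS alone instead of 15. For LPS after nicotine, 6 became 3 with quantile normalization. The cause of the changes with no filter and quantile normalization was not tested, except that fewer genes could pass at 5 FPKM. Between models the log2 differences stayed the same and the SE changed, as the additive model keeps any LPS by nicotine interaction in its error. For genotype, E2f1 differed by 0.62 in both, with an SE of 0.38 in the additive model and 0.12 with the product. Leaving out each library gave 1 to 9 for LPS on average, 5 to 8 for nicotine on average, 0 to 0 for genotype, 4 to 11 for the interaction, 4 to 11 for nicotine alone, 7 to 16 for nicotine before LPS, 10 to 19 for LPS alone and 0 to 6 for LPS after nicotine. Over the 75 calls of a gene in a comparison, the other alternatives gave 403 values, of which 342 stayed called in the same direction, 60 lost the call and 1 turned, Pcna for LPS alone (-0.27 with quantile normalization). Of 600 values with a library left out, 413 stayed called, 187 lost the call and 0 turned. The matched pairs are libraries alike in the other factors. The labels give no replicate numbers and each group has 1 library, so no pairing by replicate could be fitted. Genes under 1 FPKM rest on few fragments, which limits the mitotic genes most.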
